A study of Homo sapiens with 4 samples.

Results

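Polycomb group genes were followed through their noncoding transcripts in oxaliplatin-resistant and wild-type HepG2 cells, an established line from a human liver carcinoma. The genes were *EZH2*, *EZH1*, *SUZ12*, *EED*, *RBBP4*, *JARID2*, *MTF2*, *PHF19*, *RING1* and *BMI1*. Every deposited transcript that GENCODE release 29 assigns to one of these 10 genes was taken, which gave 49 of the 106179 transcripts in the table and 10 of the 29585 genes with a named transcript. All 49 are noncoding in that release: 32 are retained-intron transcripts, which keep part of an intron, and 17 are processed transcripts, which carry no annotated reading frame. The mRNAs of these genes are not in the table, so the values below are not mRNA levels.

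The study compared 2 libraries of cells screened for resistance to the platinum drug oxaliplatin, which binds DNA, with 2 libraries of wild-type cells, and looked for long noncoding RNAs that differ. Both groups were grown in DMEM with serum and antibiotics. The labels give no dose, no length of exposure, and no word on whether the resistant cells are 1 clone or each library is a culture of its own. The p-values set the difference between the groups against how far these libraries spread, and that spread may be technical. The members were chosen by values of this same contrast: *EZH2* for the difference of its summed counts between resistant and wild-type cells, with genes of the same complexes beside it. Differences between resistant and wild-type cells are accordingly given as descriptions of these 4 libraries and are used to support nothing.

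Polycomb proteins keep genes silent through marks on histones. Polycomb repressive complex 2 (PRC2) methylates lysine residues on the tail of histone H3, with *EZH2* or *EZH1* as the enzyme, and Polycomb repressive complex 1 (PRC1) ubiquitinates histone H2A and compacts chromatin. In liver cancer, a high level of EZH2 protein is a well-known feature. Many genes with coding transcripts also give rise to transcripts that keep an intron and are not translated into the full protein.

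The transcripts differ in how much of their sequence is their own, and this decides which reads can be told apart from spliced mRNA. Below, "own bases" are those outside the exons of every protein-coding transcript of the same gene. Own bases in an intron are also part of RNA of the gene that is not yet spliced. Reads on them were not told apart from such RNA. The first set shows 120-base windows at which a noncoding transcript runs from an exon, in lower case, into a retained intron, in capitals. They are given for the transcript of highest mean of *EZH1*, *EED*, *RBBP4* and *BMI1* and, for *EZH2*, for the only transcript counted in wild type. All are from GENCODE release 29 on GRCh38, written 5′ to 3′ on the strand of the gene.
EZH2 ENST00000469631, chr7:148810273-148810392, minus strand: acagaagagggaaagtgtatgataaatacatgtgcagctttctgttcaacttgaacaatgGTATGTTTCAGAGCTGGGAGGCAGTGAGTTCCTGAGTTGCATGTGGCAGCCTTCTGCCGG
EZH1 ENST00000585550, chr17:42703680-42703799, minus strand: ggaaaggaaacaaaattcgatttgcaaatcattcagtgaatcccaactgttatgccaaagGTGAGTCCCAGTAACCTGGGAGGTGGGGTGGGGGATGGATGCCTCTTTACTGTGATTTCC
EED ENST00000534564, chr11:86264204-86264323, plus strand: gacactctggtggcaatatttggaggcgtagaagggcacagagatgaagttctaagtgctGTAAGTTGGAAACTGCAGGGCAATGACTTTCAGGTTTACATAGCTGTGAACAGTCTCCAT
RBBP4 ENST00000401893, chr1:32668339-32668458, plus strand: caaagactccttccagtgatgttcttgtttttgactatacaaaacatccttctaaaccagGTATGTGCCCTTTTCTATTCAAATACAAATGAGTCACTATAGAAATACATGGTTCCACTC
BMI1 ENST00000456675, chr10:22326983-22327710, plus strand, spliced in the lower-case part: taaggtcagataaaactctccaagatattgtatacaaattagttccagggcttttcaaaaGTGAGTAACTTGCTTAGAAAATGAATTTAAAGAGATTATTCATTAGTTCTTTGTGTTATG

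Each of these 5 capital stretches opens with GT, the usual first bases of an intron. The *EZH1* window is identical in ENST00000585550, ENST00000586103 and ENST00000591330, the 3 longest *EZH1* transcripts with counts, so a read that lies within it fits each of them.

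The second set shows windows that lie wholly in the coding exons of mRNAs, from 3 transcripts that carry large differences and of which no base is absent from all mRNAs and decay-class transcripts of the gene. Each window spans a splice junction. They carry no capitals, since no base is the transcript's own.
EZH2 ENST00000498186, chr7:148846539-148847241, minus strand: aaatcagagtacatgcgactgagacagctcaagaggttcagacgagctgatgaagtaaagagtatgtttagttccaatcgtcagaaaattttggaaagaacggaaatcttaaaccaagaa
MTF2 ENST00000494963, chr1:93114724-93115047, plus strand: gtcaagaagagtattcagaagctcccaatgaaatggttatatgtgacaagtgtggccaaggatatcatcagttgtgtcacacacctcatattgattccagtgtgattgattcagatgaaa
PHF19 ENST00000487555, chr9:120866037-120866929, minus strand: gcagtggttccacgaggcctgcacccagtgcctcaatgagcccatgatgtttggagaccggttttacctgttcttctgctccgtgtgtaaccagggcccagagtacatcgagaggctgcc

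The *EZH2* window is held by 6 of 6 protein-coding transcripts of the gene, the *MTF2* window by 4 of 4 and the *PHF19* window by 5 of 8.

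The deposited estimated counts came to 43473826 and 44063444 in the resistant libraries and to 38113398 and 34898860 in the wild-type libraries. Counts of the 10 genes together made up 0.0364% and 0.0420% of the resistant libraries, against 0.0239% and 0.0195% of the wild-type libraries. Noncoding transcripts of all protein-coding genes took 73.3% ± 0.633 of the counts in resistant cells and 69.8% ± 0.446 in wild type (SD, n = 2 libraries each), and the part of this shift in the values below was not tested. Gene values are CPM, counts scaled to each library's total over named genes and to TMM factors, which correct for composition. CPM of single transcripts, and of the 3 *EZH1* transcripts together, are on a separate scale over all transcripts. Of the genes, 13745 were tested. On that scale 50.8% of all tested genes had a higher value in resistant cells. Of 20 hepatocyte and HepG2 marker genes, 14 were in the table, and the noncoding transcripts of *AFP*, *AHSG*, *FGB*, *SERPINA1*, *TF*, *TM4SF4* and *TTR* were at 0 in all 4 libraries. *ALB* had 8 counts in wild-type replicate 1 and 0 elsewhere, whereas the liver-fetal noncoding RNA *H19* had 5958 and 5116 counts in resistant cells and 6486 and 8186 in wild type. The hepatocyte list summed to 162.6 and 143.9 CPM in resistant cells and 220.7 and 302.9 CPM in wild type, nearly all of it *H19*. The other 3 tested markers of that list had higher means in resistant cells: *TRIM31-AS1* had 77 and 19 counts against 0 and 0, *FGG* had 8 and 74 against 3 and 9, and *FOXA1* had 67 and 52 against 29 and 48. *TRIM31-AS1* passed the filter on low counts through the resistant libraries alone, so it had to differ. Of 4 epithelial markers *CDH1* and *EPCAM* were at 0, and the list summed to 234.7 and 198.9 CPM against 334.7 and 591.8 CPM through *KRT8* and *KRT18*. The summed CPM of 10 fibroblast and mesenchymal markers was 177.8 to 205.5 in resistant cells and 215.0 to 251.1 in wild type. The summed CPM of 3 endothelial and of 3 leukocyte markers lay between 0 and 0.719 in every library. With the mRNAs not in the table, these zeros do not show that the genes were silent. Fewer cells of a type and less RNA per cell cannot be told apart in bulk libraries.

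Summed over the transcripts of each gene, 9 of the 10 members had enough counts for the test across all genes, and all 9 had a higher mean in resistant cells. In 7 of them both resistant libraries lay above both wild-type libraries, which 22.5% of all tested genes did. With the Benjamini-Hochberg adjustment, edgeR called 0 of the 9, and 0% of the 13745 genes. At an unadjusted p under 0.05 it gave 2 of the 9, *EZH2* and *MTF2*, both higher, and 8.67% of all genes. The median log2 fold change was 0.64 over the 9 members and 0.01 over all tested genes. Since the contrast was known when the genes were chosen, nothing is read from these counts.

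**Figure D1:**
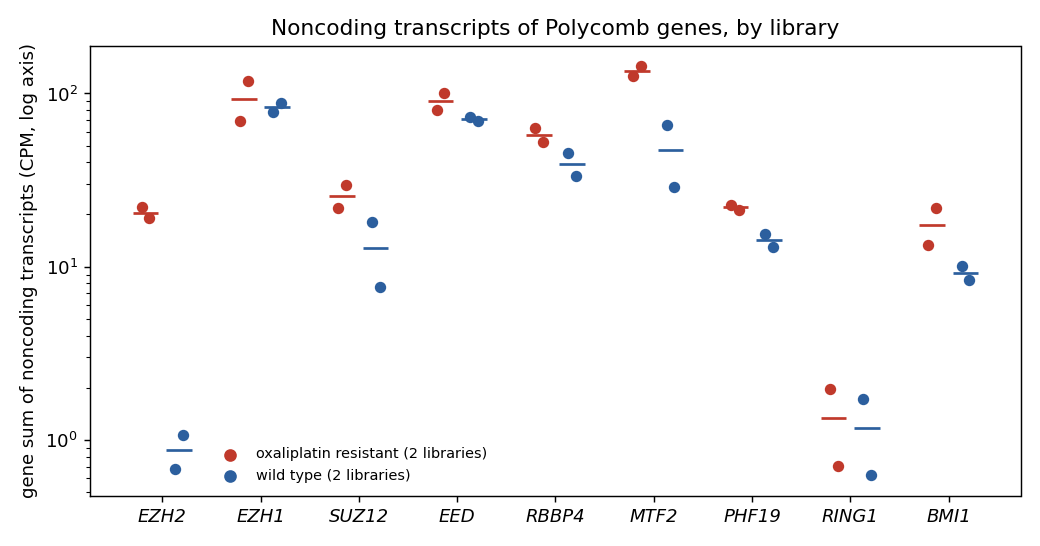
Noncoding transcripts summed per gene, in CPM on a log axis, for the 9 Polycomb genes tested; points are single libraries (2 resistant, left, and 2 wild type, right) and bars are group means. The resistant points lie above the wild-type points for 7 genes, the gap is widest for *EZH2*, and the groups overlap for *EZH1* and *RING1*.

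*EZH2*, the enzyme of PRC2 in dividing cells, had the largest fold difference of the tested members. Its sum had 826 and 698 counts in resistant cells against 20 and 29 in wild type, or 22.0 and 19.1 CPM against 0.676 and 1.07 CPM. Both resistant libraries stood far above both wild-type libraries. The means were 20.5 ± 2.05 CPM and 0.871 ± 0.275 CPM (SD, n = 2 each), a 23.6-fold higher level. The gene lies on chromosome 7 from 148807383 to 148884321, minus strand, and has 2 noncoding transcripts in the table.

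Nearly all of this difference lay in 1 transcript. ENST00000498186, a retained-intron transcript of 10 exons and 1876 bases, had 787 and 631 counts in resistant cells and 0 in both wild-type libraries. Against a limit of 3 counts per library, which a count of 0 allows, it was at least 182-fold higher, a bound that covers counting error only. Zeros beside high counts also occurred within groups. In the resistant pair 670 transcripts, and in the wild-type pair 560, had 0 counts in 1 library and over 1000 in the other. Whether the zeros here are of that kind was not tested. ENST00000498186 passed the filter on low counts through the resistant libraries alone, so it had to differ. The other *EZH2* transcript, ENST00000469631, had 39 and 67 counts in resistant cells against 20 and 29 in wild type. On the CPM scale of the transcript test these were 0.857 and 1.53 CPM against 0.555 and 0.878 CPM, and the groups overlapped. ENST00000469631 held 4.72% and 9.60% of the *EZH2* counts in the resistant libraries and 100% in both wild-type libraries.

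These transcripts lie at different places in the gene and differ in what is their own. ENST00000469631 has 236 own bases of 414, in introns near the 3′ end, with the boundary printed above. ENST00000498186 has 485 bases outside protein-coding transcripts. Of these, 0 lie outside a transcript of the nonsense-mediated decay class, a class the cell is known to degrade, and 0 of its 9 splice junctions are its own. Its 1260 coding-exon bases, of which a stretch is printed above, are also in *EZH2* reading frames. How reads were shared between this transcript and the *EZH2* mRNAs is not given in the sources used here, and the part of such sharing in the difference was not tested. The processed pseudogene *EZH2P1*, on chromosome 21, is without counts in these data, so the share of reads from that copy is uncertain.

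The 3 genes named next had the pattern over the 4 libraries closest to the *EZH2* sum, by Euclidean distance of centred log2(CPM + 0.1) among all genes tested. *AC025048.6* had 79 and 71 counts in resistant cells and 0 in both wild-type libraries, at a distance of 0.42. *LENG8-AS1* had 72 and 68 counts against 0 and 0, and *AL121899.1* had 95 and 80 against 0 and 0, at distances of 0.45 each. All 3 passed the filter on low counts through the resistant libraries alone, so they had to differ. With 0 counts in wild type, their distance to *EZH2* depends on the 0.1 added before the log. Their fitted log2 fold changes, fits against 0 counts, were 9.05, 8.95 and 9.27, against 4.55 for the *EZH2* sum. The likeness rests on 4 libraries and is given as a description.

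*EZH1*, the second methyltransferase of PRC2, known for its place in cells that no longer divide, showed no such separation. Its sum had 69.1 and 117.5 CPM in resistant cells and 78.2 and 88.1 CPM in wild type. The wild-type libraries lay between the resistant ones. The means were 93.3 ± 34.2 CPM and 83.1 ± 6.96 CPM (SD, n = 2 each), and the log2 fold change was 0.17 ± 0.37 (SE).

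Below the level of the sum, single *EZH1* transcripts differed strongly from library to library. ENST00000585550 had 0 and 2101 counts in resistant replicates 1 and 2 against 1131 and 1270 in wild type. ENST00000591330 had 833 and 134 counts in resistant cells against 36 and 0. ENST00000586103 had 993 and 399 against 257 and 327. Resistant replicate 1, with no count on the first of these, thus had the highest counts on the other two. All 3 share 1533 bases, including the intron stretch printed above. Together they held 1826 and 2634 counts in resistant cells and 1424 and 1597 in wild type, or 50.1 ± 14.1 CPM against 43.9 ± 6.23 CPM (SD, n = 2 each). They made up 70.3% and 61.3% of the *EZH1* sum in the resistant libraries and 61.6% and 66.6% in the wild-type libraries. The difference between the resistant libraries on single *EZH1* transcripts was therefore larger than that between the groups on their sum.

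Of the other *EZH1* transcripts, ENST00000590082, a processed transcript at the 5′ end of the gene, had 9.78 and 31.6 CPM in resistant cells against 17.7 and 13.2 CPM in wild type. Resistant replicate 2 was the highest and replicate 1 the lowest of the 4. ENST00000590783 went the other way from most members, with 30 and 15 counts in resistant cells against 54 and 84 in wild type, a log2 fold change of -2.01 ± 0.67 (SE). ENST00000589846 had 1.30 and 1.85 CPM in resistant cells against 2.11 and 2.24 CPM. In both of these the resistant libraries were the lower ones.

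**Figure D2:**
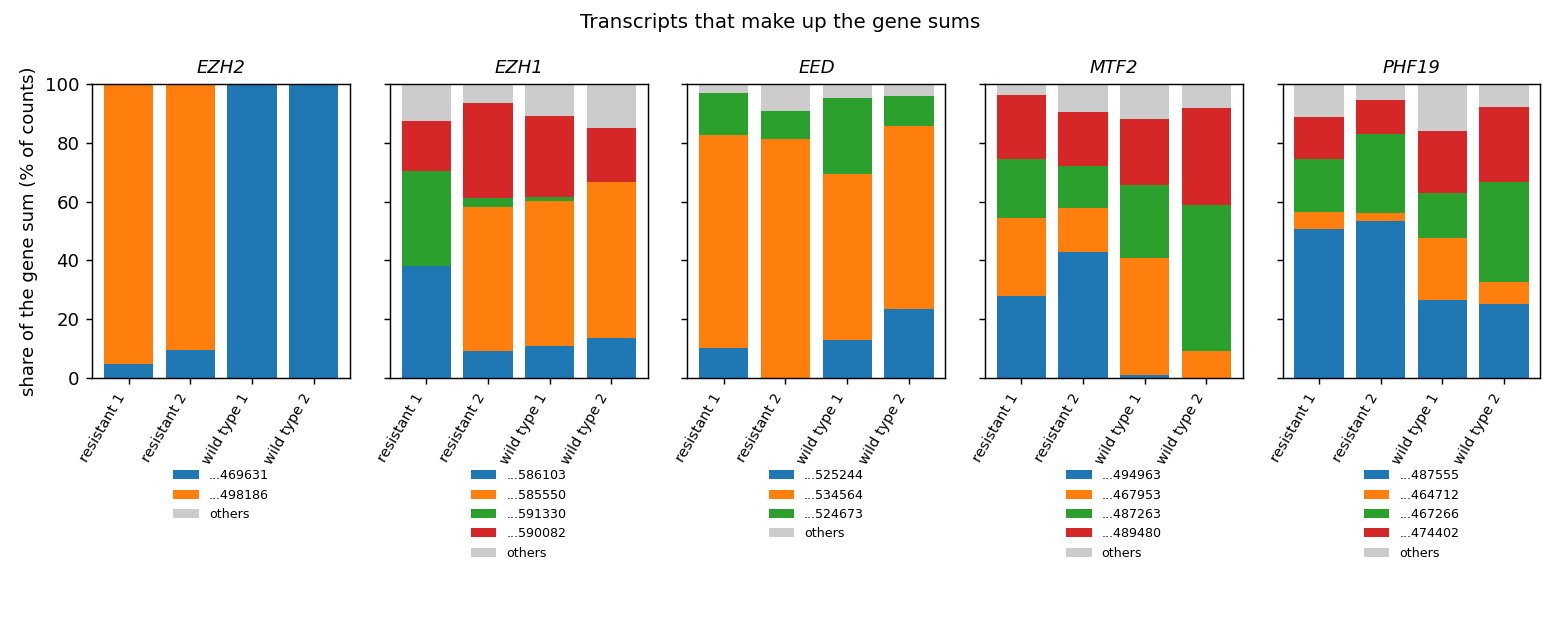
Share of each gene sum (percent of counts) held by its transcripts in the 4 libraries, resistant left of wild type; colours are transcripts with at least 20% in any library, named by the last 6 digits of their identifier, and grey is the rest. In *EZH2* the orange transcript is present in the resistant libraries alone, and in *EZH1* and *EED* 1 resistant library lacks a transcript that the other holds.

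Among the core subunits, *EED*, *SUZ12* and *RBBP4* had moderately higher sums in resistant cells. *EED* encodes the subunit that reads methylated histone H3 and stimulates the enzyme. Its sum had 80.0 and 100.6 CPM in resistant cells against 73.4 and 69.5 CPM in wild type, a log2 fold change of 0.34 ± 0.27 (SE). Most of it came from ENST00000534564, a 2767-base transcript with 2046 own bases, which had 47.7 and 68.1 CPM against 33.9 and 35.4 CPM. That transcript held 72.1% and 81.2% of the *EED* counts in the resistant libraries and 56.2% and 61.9% in wild type. Without it the order turned round: the other 4 *EED* transcripts together had 22.3 and 18.9 CPM in resistant cells against 32.1 and 26.5 CPM in wild type. Among these, ENST00000525244 had 313 and 0 counts in resistant cells against 281 and 448, with resistant replicate 2 at 0. ENST00000524673 had 9.48 and 8.02 CPM against 15.5 and 5.96 CPM, and its groups overlapped.

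*SUZ12*, the scaffold that holds PRC2 together, had 21.7 and 29.5 CPM in resistant cells against 18.0 and 7.64 CPM in wild type. The means were 25.6 ± 5.52 and 12.8 ± 7.34 CPM (SD, n = 2 each), a 2.00-fold higher level. The wild-type libraries differed from each other by more than their upper one differed from the lower resistant one. ENST00000578106, a transcript with 211 own bases of 1367, carried this spread, with 675 and 960 counts in resistant cells against 451 and 128. ENST00000494429 is 1 unspliced stretch of 1895 bases, 1845 of them its own. It had 3.12 and 2.76 CPM in resistant cells against 2.28 and 2.42 CPM, a small difference without overlap. The duplicated pseudogene *SUZ12P1* had 255 and 254 counts in resistant cells and 447 and 745 in wild type, the opposite order, and how reads were split between the copies is uncertain.

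*RBBP4*, a histone-binding subunit that PRC2 shares with other chromatin complexes, had 63.2 and 52.2 CPM in resistant cells against 45.5 and 33.2 CPM in wild type. The means of 57.7 ± 7.76 and 39.3 ± 8.68 CPM (SD, n = 2 each) correspond to a log2 fold change of 0.55 ± 0.32 (SE). ENST00000401893, shown above at its intron boundary, had 32.9 and 27.9 CPM in resistant cells against 24.2 and 13.7 CPM, and ENST00000525506 had 14.7 and 11.7 CPM against 8.46 and 9.56 CPM. Both had resistant libraries above both wild-type libraries. The gene has 6 processed pseudogenes in release 29, none with a row in the table, so the share of reads from such copies is uncertain.

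Next come the cofactors that guide PRC2 to its sites. *JARID2*, a cofactor of one form of PRC2, has 1 noncoding transcript in the table, with 0 counts in both resistant libraries against 1 and 0 in wild type. It was the member not tested, and no difference was detectable at this depth. *MTF2* and *PHF19* are Polycomb-like proteins that bind DNA and methylated histone H3 in the other form of PRC2.

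*MTF2* had 126.6 and 143.3 CPM against 65.5 and 28.9 CPM in wild type. The groups did not overlap, although the wild-type libraries differed by more than the resistant ones. The means were 135.0 ± 11.8 and 47.2 ± 25.8 CPM (SD, n = 2 each), 2.86-fold higher. Much of the difference came from ENST00000494963, with 1322 and 2249 counts in resistant cells against 21 and 0 in wild type. Its 885 bases and 8 junctions all lie within 1 *MTF2* mRNA, so no read of it can be told from that mRNA by sequence. ENST00000467953 had 27.9 and 17.9 CPM in resistant cells against 21.4 and 2.24 CPM, with overlap. It has 4 own bases of 1870.

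The *MTF2* transcripts that hold at least 100 own bases differed less. The 4 of them together had 57.7 and 51.7 CPM in resistant cells against 38.5 and 26.2 CPM in wild type, 1.69-fold higher, and the other 6 together had 68.9 and 91.7 CPM against 26.98 and 2.72 CPM, 5.41-fold higher. Within the first set, ENST00000489480 had 22.8 and 21.5 CPM against 12.04 and 7.84 CPM, ENST00000487263 had 20.8 and 17.1 CPM against 13.3 and 11.8 CPM, and ENST00000468457 had 4.09 and 4.44 CPM against 3.77 and 1.97 CPM. None of these 3 overlapped between the groups, where 21.4% of all tested transcripts had both resistant libraries higher. Not overlapping is also a ground for naming a transcript here, so nothing is read from this count. The other transcript of the first set, ENST00000476037, had 90 counts in wild-type replicate 1 and 0 elsewhere. The limit of 100 bases was chosen after the values were seen.

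*PHF19* had 22.8 and 21.2 CPM in resistant cells against 15.4 and 12.97 CPM in wild type. Its log2 fold change was 0.64 ± 0.31 (SE). This difference, too, sat in 1 transcript. ENST00000487555, a processed transcript of 9 exons without an own base but with 1 own splice junction, had 434 and 414 counts in resistant cells against 121 and 89 in wild type. The other 5 *PHF19* transcripts, all with at least 100 own bases, had 11.3 and 9.87 CPM together in resistant cells and 11.3 and 9.70 CPM in wild type, a 1.01-fold ratio. Of these, ENST00000464712 had 49 and 22 counts in resistant cells against 95 and 26, ENST00000467266 had 155 and 206 against 70 and 120, and ENST00000474402 had 121 and 89 against 95 and 90. None of the 3 separated the groups.

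The PRC1 members were *BMI1* and *RING1*. *BMI1*, a subunit that stimulates the ubiquitin ligase of PRC1, had 13.3 and 21.7 CPM in resistant cells against 10.04 and 8.34 CPM in wild type, 1.90-fold higher. The groups did not overlap, and the resistant libraries differed by more than the wild-type ones. ENST00000456675, whose intron boundary is printed above, had 8.33 and 13.7 CPM against 4.72 and 4.63 CPM and held 76.0% and 75.8% of the *BMI1* counts in the resistant libraries and 57.2% and 67.4% in wild type. All 6 *BMI1* transcripts also overlap exons of *COMMD3-BMI1*, a readthrough gene on the same strand, whose own named transcripts in the table had 0 counts. The processed pseudogene *BMI1P1* has no row in the table, so the share of reads from that copy is uncertain. *RING1*, one of the ubiquitin ligases of PRC1, has 1 transcript in the table, with 74 and 26 counts in resistant cells against 51 and 17 in wild type. In both groups replicate 1 lay above replicate 2, and the groups overlapped.

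Across all 49 member transcripts, 43 had a count and 37 passed the filter on low counts. Of the 37, 28 were higher and 9 lower in resistant cells, where 51.1% of all tested transcripts were higher. In 13 both resistant libraries lay above both wild-type libraries, which 21.4% of all tested transcripts did, and in 3 both lay below, against 18.9%. The edgeR test called 0 of the 37 and 0% of 42393 transcripts, with 4 of the 37 and 7.74% of all at an unadjusted p under 0.05. Of those 4, ENST00000498186, ENST00000494963 and ENST00000487555 were higher, where 4.56% of all were, and ENST00000590783 was lower, where 3.18% were. limma-voom called 0 of the 37 and DESeq2 called 3, namely ENST00000498186, ENST00000494963 and ENST00000487555, where it called 5.33% of all transcripts. At the level of the sums limma-voom called 0 of the 9 members and DESeq2 called *EZH2* alone, where it called 4.6% of all genes. Of the 37, 5 had fewer than 2 wild-type libraries above the filter and 2 fewer than 2 resistant ones, so these passed largely through 1 group. The 11 tested transcripts not named here had log2 fold changes between -0.55 and 1.64 and at most 246 counts in a library.

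Ordered by their own bases, the largest differences stood among transcripts that share most of their sequence with mRNA. The 2 tested transcripts with no own base, of *MTF2* and *PHF19*, had log2 fold changes of 7.09 and 1.65. The *MTF2* value rests on 21 and 0 wild-type counts and was 6.10 without wild-type replicate 2 and 13.7, a fit against 0 counts, without wild-type replicate 1. The 31 with at least 100 own bases had a median of 0.54, which is the same with *EZH2* ENST00000498186 at its bound of 182-fold. Those of them with wild-type counts had values between -2.01 and 4.41. *SUZ12* ENST00000494429, the one with the highest share of own bases, at 97.4%, had a log2 fold change of 0.32 ± 0.42 (SE). *EED* ENST00000534564, at 73.9%, had 0.74 ± 0.37. The members were few and share genes, so this is a description with no test.

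**Figure D3:**
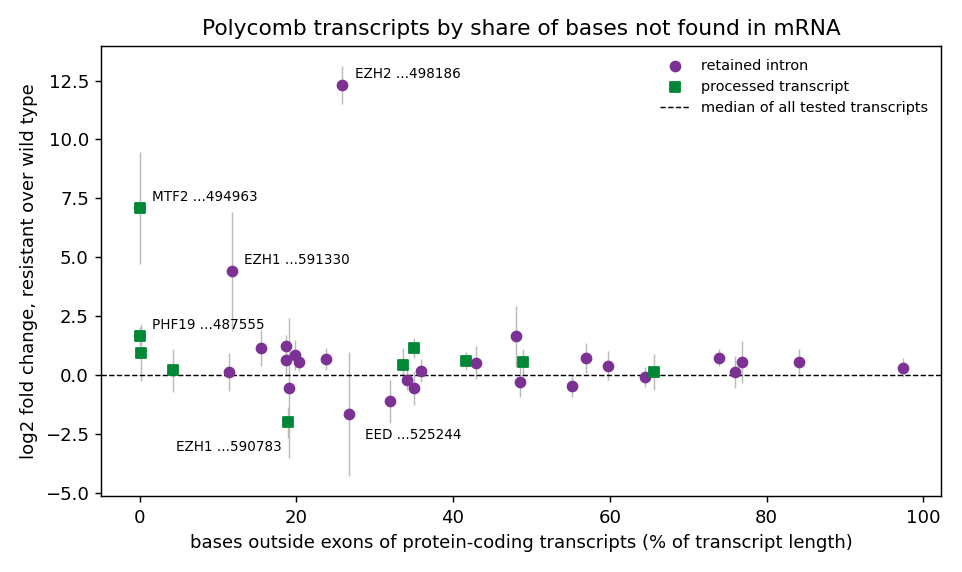
Fitted log2 fold change (resistant over wild type) of the 37 tested member transcripts against the share of their bases outside exons of protein-coding transcripts; vertical lines are ± 1 SE, the height of the *EZH2* point at the top is a fit against 0 wild-type counts and no bound, and the dashed line is the median of all tested transcripts. Values above 2.5 occur for transcripts of *EZH2*, *MTF2* and *EZH1* with under 30% own bases, and the 7 transcripts with over 60% lie between -0.09 and 0.74.

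To compare levels between genes, counts were divided by transcript length and scaled to the same total in each library. On this per-length scale *MTF2*, *EZH1* and *RBBP4* had means over the 4 libraries of 90.8, 90.5 and 81.4. The place of *MTF2* came from the resistant libraries, at 139.4 ± 14.6 against 42.2 ± 18.9 in wild type (SD, n = 2 each). In wild type alone *EZH1* at 85.5, *RBBP4* at 64.1 and *EED* at 43.8 had higher means than *MTF2*. There *MTF2*, at 55.5 and 28.8, lay below *EZH1*, at 83.5 and 87.5, and below *RBBP4*, at 72.1 and 56.1, without overlap. Over all 4 libraries the ranges of *MTF2*, *EZH1* and *RBBP4* overlapped, and *MTF2* was above *EZH1* in 2 of 4 libraries. Those ranges include the difference of *MTF2* between the groups, so the order of these genes depends on the group. *EED* followed at 47.9, overlapping *RBBP4* in range but lower in each of the 4 libraries, and *PHF19* at 27.8, and the ranges of these neighbours did not overlap. *BMI1* at 27.04 was not separated from *PHF19*, and *SUZ12* at 14.6 overlapped *BMI1* in range while being lower in each of the 4 libraries. *EZH2* came next at 8.70, below *SUZ12* in each library with overlapping ranges, the mean of 15.8 and 14.6 in resistant cells and 1.72 and 2.72 in wild type. *RING1* at 0.900 and *JARID2* at 0.0171 were last, each apart from its neighbours. Between the methyltransferases, *EZH2* made up 20.04% and 10.2% of the per-length sum of *EZH2* and *EZH1* in resistant cells and 2.02% and 3.02% in wild type, so *EZH1* was higher in all 4 libraries.

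**Figure D4:**
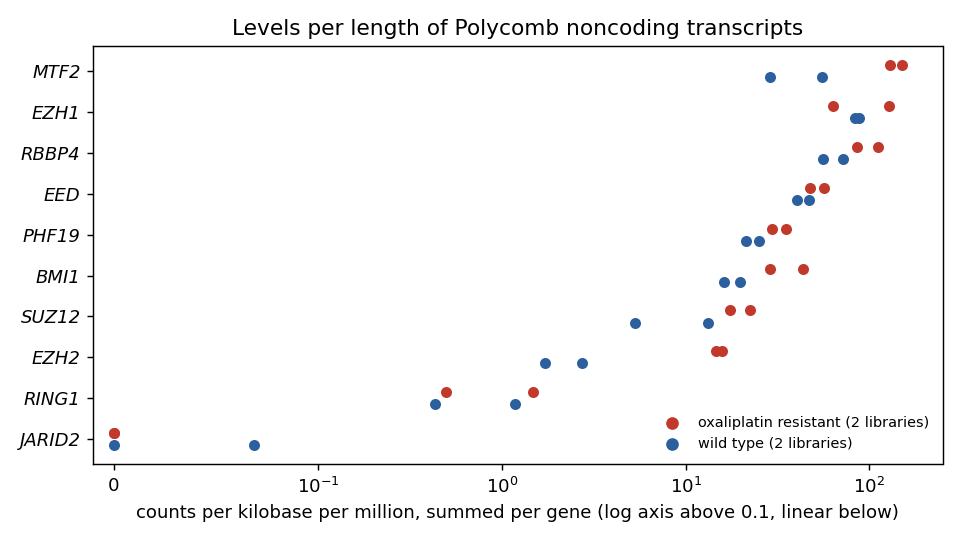
Counts per kilobase of transcript, scaled to the same total and summed per gene, for the 10 members in order of their mean; each point is 1 library, with resistant above wild type in each row, on an axis that is logarithmic above 0.1 and linear below. *MTF2* and *EZH2* show the widest gaps between the groups, and *JARID2* is at 0 in all libraries but wild-type replicate 1.

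The other genes of the Polycomb system, and the trithorax genes that oppose it, were read from the same fit. Of 70 genes listed from their known roles, 62 were in the table and 56 were tested. After adjustment edgeR called 0 of them, limma-voom called 0 and DESeq2 called 1, *LCOR*. At an unadjusted p under 0.05 edgeR gave 2 higher and 1 lower, against 4.74% and 3.93% of all genes. The higher ones were *LCOR* and *HCFC1*, and *HCFC1* passed the filter on low counts through the resistant libraries alone. Of the 56, 34 were higher and 22 lower in resistant cells, and their median log2 fold change was 0.11, against 0.01 over all genes. The list was written with earlier results of these data known.

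Among further PRC2 subunits and cofactors, *LCOR*, whose locus also encodes a PRC2 cofactor, had 570 and 2834 counts in resistant cells against 46 and 16 in wild type, 5.43 ± 1.21 higher on the log2 scale (SE, edgeR adjusted p = 0.393). Both resistant libraries were higher, but they differed from each other several-fold, and without resistant replicate 2 the log2 fold change was 3.82. *RBBP7*, the close relative of *RBBP4*, had 78.0 and 105.5 CPM against 118.9 and 101.3 CPM and its groups overlapped. Of the 25 tested PRC1 genes, 14 were higher and 11 lower. *L3MBTL2*, a subunit of a variant PRC1, had 104.7 and 138.3 CPM in resistant cells against 72.2 and 72.4 CPM (0.75 ± 0.27 on the log2 scale, edgeR adjusted p = 0.598). *PHC2*, a polyhomeotic subunit, had 47.5 and 53.9 CPM against 85.9 and 79.9 CPM (-0.71 ± 0.25, edgeR adjusted p = 0.585). *PCGF6* and *SCMH1*, of highest mean CPM in this list, did not pass either. *PCGF6* had 966.4 and 331.9 CPM in resistant cells against 1013 and 996.9 CPM, with resistant replicate 2 far below the rest, and *SCMH1* had 439.6 and 424.9 CPM against 349.1 and 312.7 CPM.

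The complex that removes ubiquitin from histone H2A had 10 tested genes, 7 higher and 3 lower. *OGT*, the sugar transferase bound to it, had 3857 and 3302 CPM in resistant cells against 3385 and 3081 CPM, and *MBD5* had 956.3 and 790.4 against 898.0 and 755.8 CPM, both with overlap. *FOXK2*, a forkhead factor, had 142.7 and 79.8 CPM against 35.7 and 65.8 CPM (edgeR adjusted p = 0.670). *HCFC1*, a host cell factor, had 19 counts in each resistant library and 0 in both wild-type libraries (edgeR adjusted p = 0.393). It was at least 4.84-fold higher against the limit of 3 counts per library, a bound for counting error only. This gene passed the filter on low counts through the resistant libraries alone, so it had to differ. Of 18 tested demethylase and trithorax genes, 12 were higher and 6 lower. *KDM6A*, which removes the PRC2 mark, had 433.3 and 533.6 CPM against 165.7 and 366.1 CPM, and *KMT2C*, a methyltransferase of the trithorax group, had 421.0 and 169.7 against 76.3 and 126.7 CPM. *NCOA6*, a partner of such enzymes, had 9.23 and 16.1 CPM against 26.2 and 41.4 CPM. None of these 3 passed (edgeR adjusted p = 0.712, 0.623 and 0.558 in that order).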

How the data were processed

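Total RNA of 4 libraries was sequenced as paired-end Illumina reads, per the labels' protocols. The table deposited by the authors holds unscaled estimated counts of transcripts, as whole numbers, in 1 column per library. That unit was read from the values. For aligner, counting tool, annotation release and strand setting, the status is: not given in the sources used here. A mouse build, mm9, is listed in the submitters' processing notes, whereas 103347 identifiers are human Ensembl transcripts. Of these, 84072 matched GENCODE release 29 on GRCh38, and the other 19275, with 2832 assembled transcripts, were not assigned to genes. Transcripts of the members among them are not analysed here.

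Counts, whole as deposited, were tested per transcript and summed per gene with edgeR 4.0.16 in R 4.3.3: quasi-likelihood test, TMM factors, expression filter at a minimum count of 10, two-sided, Benjamini-Hochberg adjustment over all features, threshold 0.05. SEs of log2 fold changes were taken from the test statistic. limma 3.58.1 (voom) and DESeq2 1.42.0 were alternatives. An exact permutation test of 2 against 2 libraries cannot go below p = 0.33 and was not used. The script was tested on simulated data with far less spread than these libraries have, so that test does not show which differences could be found here. The common dispersion, edgeR's measure of spread beyond sampling noise, was 0.542 over genes and 0.941 over transcripts. Each pair of libraries differed by more than sampling noise, with 216.1 to 270.9 as chi-square divided by transcripts. A count of 0 allows up to 3 counts, and such limits cover counting error only. Deviations of same-numbered libraries from their group means correlated at -0.02 over genes, and nothing in the labels pairs them.

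The members and gene lists were chosen with earlier results of these data known. All 10 members are named, and those of their tested transcripts that hold at least 20% of a gene sum in any library or do not overlap between groups. From each further list the genes that passed are named, or otherwise the 2 of highest mean and the 2 of smallest p. Own bases were counted from GENCODE exons in Python 3.11.15.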

Additional observations from a re-analysis of the deposited data

How the results depend on the processing

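Other size factors, library totals alone, no filter, a minimum count of 50, limma-voom, the replicate number as a block and each leave-one-out fit gave 0 called genes and 0 called transcripts, as did the 56 other Polycomb and trithorax genes, whereas DESeq2 called 632 genes, 2261 transcripts and 1 of the 56. With the replicate block, 9 of 9 member sums and 27 of 37 member transcripts were higher in resistant cells (28 without it), and no call changed; the libraries share only a number. Leaving out 1 library gave 8 to 9 higher sums and 24 to 31 higher transcripts, where the lone library is assumed to vary like the others. In these fits the log2 fold change of *EZH2* stayed between 4.27 and 4.92. That of *SUZ12* ran from 0.51 without wild-type replicate 2 to 1.75 without wild-type replicate 1, and that of *MTF2*, without the same libraries, from 1.04 to 2.22. That of *LCOR* ran between 3.82 without resistant replicate 2 and 6.29, and that of *MTF2* ENST00000494963 between 6.10 and 13.7, the higher ends without wild-type replicate 1. The sign changed with the library left out for *EZH1* (-0.26 without resistant replicate 2, otherwise up to 0.50), *RING1* (-0.72 without resistant replicate 1, -0.36 without wild-type replicate 2, up to 1.10) and its ENST00000478431 (-0.70, -0.35, up to 1.10), and *MBD5* (-0.063, -0.04, up to 0.22). It also changed for ENST00000585550 (-13.4 to 0.46, positive without resistant replicate 1), ENST00000590082 (-0.66 without resistant replicate 2, to 1.03), ENST00000524673 (-0.83 to 0.55) and ENST00000464712 (-1.77 to 0.0043), the last pair positive without wild-type replicate 1. With the transcript of highest mean left out, 7 of 8 sums were higher, *EED* reversed (-0.51) and *EZH2* came to 0.72 in place of 4.55. With transcripts of at least 100 own bases alone, an alternative added after seeing the data, 8 of 8 were higher, and per kilobase 9 of 9, with *EZH2* at 2.77. The causes were not tested. *JARID2*, with 1 count in all, could not be tested at this depth.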
